A study of Lachancea waltii with 4 samples.

Results

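The 150 genes described here are those of the yeast Lachancea waltii (earlier Kluyveromyces waltii) whose RNA measurements differed most between arrays 2 and 4 on one side and arrays 1 and 3 on the other. For each probe the log2 ratio of RNA to genomic DNA signal was taken relative to the median probe of the array, and the difference D was the mean of arrays 2 and 4 minus the mean of arrays 1 and 3. Of 5193 genes on the array, 4812 had both of their 2 probes free of outlier marks and RNA well above background on every array, and 381 were left out. In 3103 of the 4812 genes the D of both probes had the same sign, above 0 in 1309 and below 0 in 1794. The members were chosen by D itself, as the 150 of these genes with the largest D in the weaker of their 2 probes, with 95 of them higher and 55 lower in arrays 2 and 4. Because D chose the members, their D values are a description with no test.

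The study measured mRNA abundance across yeast species. L. waltii strain NCYC 2644 was grown in rich medium at 30 °C to mid-log phase. On each of 4 arrays its total RNA (Cy3) was set against its own genomic DNA (Cy5). The labels number the RNA samples 1 to 4 and form 1 group, the methods call such samples biological replicates, and neither gives a property that separates samples 2 and 4 from samples 1 and 3, so the pairs are not labelled conditions.

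L. waltii is a budding yeast whose lineage split from that of Saccharomyces cerevisiae before the genome duplication of the latter. Genomic DNA serves as the reference on such arrays because a gene found once in the genome gives every one of its probes the same amount of target, whereas a sequence present in several copies gives a brighter genomic DNA spot. In yeasts, repeated sequences include the ribosomal DNA, mobile elements and families of genes near chromosome ends, and shotgun assemblies often leave such sequences on short contigs. No gene name or function was used here for the identifiers on this array, so the members are described by identifier, signal and position. In cultures measured in bulk, fewer cells expressing a gene and less RNA per cell cannot be told apart.

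All 4 arrays lay on 1 slide and were read in 1 scan. The median RNA signal of gene probes after background subtraction was 1191, 1713.5, 1300.25 and 1580 units on arrays 1 to 4, and the median signal of the 77 negative controls was 27.5 to 37 units. Over the 4812 genes, the SD of the difference between single arrays was 0.157 for array 3 minus array 1 and 0.152 for array 4 minus array 2, and 0.225 to 0.239 for the other 4 differences.

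The 95 higher members had a median D of 0.72 (range 0.43 to 1.88), which is 1.64-fold. The 55 lower members had a median D of -0.63 (range -1.78 to -0.40), which is 1.55-fold. Both probes passed a 2-fold difference in 17 higher and 5 lower members. The last genes inside the limit were Kwal_56.23530 (D 0.44, probes 0.49 and 0.40) and Kwal_47.17294 (D 0.45, probes 0.50 and 0.39), and the first outside were Kwal_33.12995 (D 0.46, weaker probe 0.39) and Kwal_14.1114 (D -0.48, weaker probe -0.39). The limit therefore lay in a continuous range of values and marks no gap. The sizes depended on the scaling of the ratio. After a loess fit of the ratio on mean signal within each array, 68 of the 95 higher members had a D above 0 and 39 of the 55 lower members a D below 0, with medians of 0.0835 and -0.0399, and with the dye-normalised log ratio of the scanner software these counts were 91 and 55, with medians of 0.274 and -0.234. All 95 and all 55 kept their sign under the other 7 scalings tried.

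Arrays 2 and 4 both lay above arrays 1 and 3 in 95 of the 95 higher members, and this was so in 19.7% of the genes that met the filters. Both lay below in 52 of the 55 lower members, against 27.2% of the genes that met the filters. These counts follow from the choice of members, and nothing is read from them. Differences within a pair were not used in the choice. Array 3 minus array 1 had a median absolute value of 0.139 in higher members, 0.130 in lower members and 0.0990 in the genes that met the filters, and array 4 minus array 2 had 0.135, 0.112 and 0.0944. The absolute D was larger than both within-pair differences in 90 of 95 higher and in 51 of 55 lower members, against 1630 of the 4812 genes that met the filters (33.9%), and this too follows from the choice of members by D.

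The gene with the largest D was Kwal_27.11204. Its log2 ratio relative to the median probe was -5.09, -2.92, -5.01 and -3.42 on arrays 1 to 4, and its RNA signal was 188, 1191, 210 and 800 units. Arrays 2 and 4 lay above arrays 1 and 3 with no overlap, and D was 1.88, or 3.68-fold. The next was Kwal_2.444, with ratios of -4.40, -2.52, -4.53 and -2.97 and a D of 1.72. Its weaker probe had a D of 1.69, but the 2 probes of each of these 2 genes overlapped by 54 bases and are not separate measurements. Array 2 was the highest for both genes, and array 4 lay between it and the other pair. Kwal_25.6633 had ratios of -5.09, -3.07, -4.68 and -3.18. Kwal_27.11211 had -4.68, -2.86, -4.45 and -2.91. In both the arrays of a pair lay closer to each other than the pairs did, with a D of 1.76 and 1.68. Kwal_27.11206 (-5.65, -3.70, -5.51 and -4.29) and Kwal_25.6628 (-4.74, -3.09, -4.76 and -3.44) complete the 6 leading higher members, with a D of 1.59 and 1.48. All 6 were among the genes with little RNA for their genomic DNA signal, with ratios far below the median probe on every array. After loess their D was 0.22 to 0.58. The probes of Kwal_27.11206 and Kwal_27.11211 also overlapped, by 40 and 30 bases, and those of Kwal_25.6633 and Kwal_25.6628 did not.

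The gene with the largest D below 0 was Kwal_56.24353. Its log2 ratio was -0.00, -1.90, -0.31 and -1.97 on arrays 1 to 4, and its RNA signal was 887, 350.5, 892 and 285 units. The pairs did not overlap, and D was -1.78, or 3.43-fold. Kwal_56.24020 had ratios of 0.36, -0.89, 0.23 and -1.04, with a D of -1.26. Kwal_27.11951 had ratios of 1.49, 0.29, 1.68 and 0.38, with a D of -1.25. Array 2 and array 4 lay close together in each of these 3 genes. Kwal_26.7437 had ratios of 1.58, 0.21, 1.13 and 0.14, with a D of -1.18. Kwal_55.20461 had ratios of 3.44, 2.16, 3.22 and 2.39, with a D of -1.05. Kwal_33.15434 had ratios of 0.38, -0.78, 0.04 and -0.83, with a D of -1.01. In all 6 the pairs lay apart, and in contrast to the 6 leading higher members the genomic DNA signal was ordinary, at 0.57 to 1.27 times that of the median probe. After loess their D was -0.47 to -0.02.

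**Figure D1:**
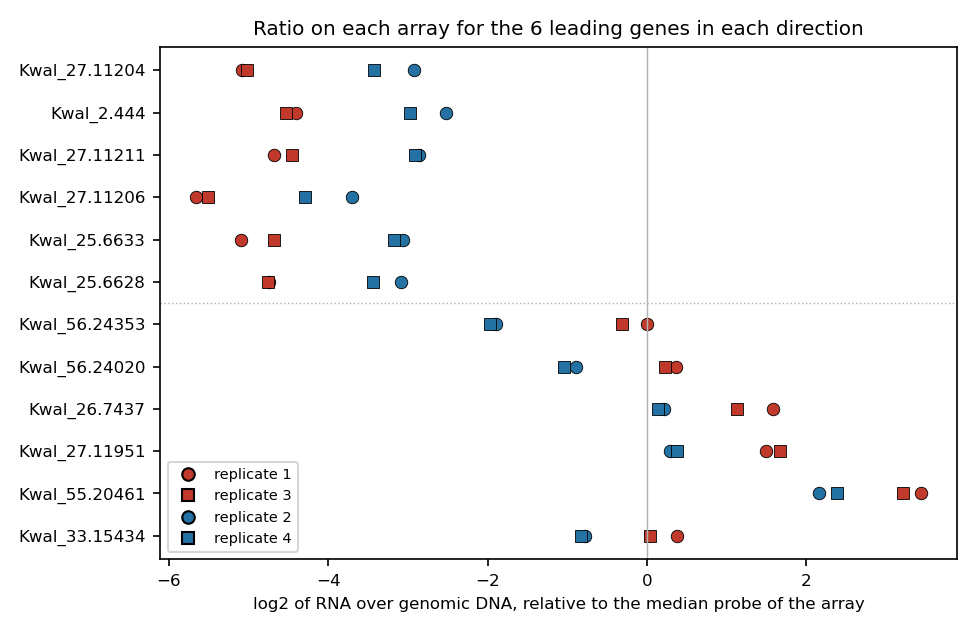
Log2 ratio of RNA to genomic DNA relative to the median probe of the array (horizontal axis) for the 6 leading higher members (upper rows) and the 6 leading lower members (lower rows); each marker is 1 array, red for arrays 1 and 3 and blue for arrays 2 and 4. The higher members lie between -5.65 and -2.52, the lower members between -1.97 and 3.44, and in each of the 12 genes the colours do not overlap.

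The difference between pairs can be split by channel. D is the RNA difference less the genomic DNA difference, so this split describes the values that chose the members, and the choice favours the channel that varied more (median absolute difference over the genes that met the filters 0.108 in RNA and 0.0414 in genomic DNA). Taken by channel, each relative to the median probe of the array, the median difference of the higher members was 0.80 in RNA and 0.03 in genomic DNA, and that of the lower members was -0.72 in RNA and -0.05 in genomic DNA. The RNA part was the larger one in 95 of 95 higher and 54 of 55 lower members, against 3787 of the 4812 genes that met the filters (78.7%). The exception was Kwal_47.16825, the member with the brightest genomic DNA signal (18.3 times the median probe), where RNA gave -0.27 and genomic DNA 0.28. Its RNA signal was 164182, 202619, 181045 and 178031 units on arrays 1 to 4.

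**Figure D2:**
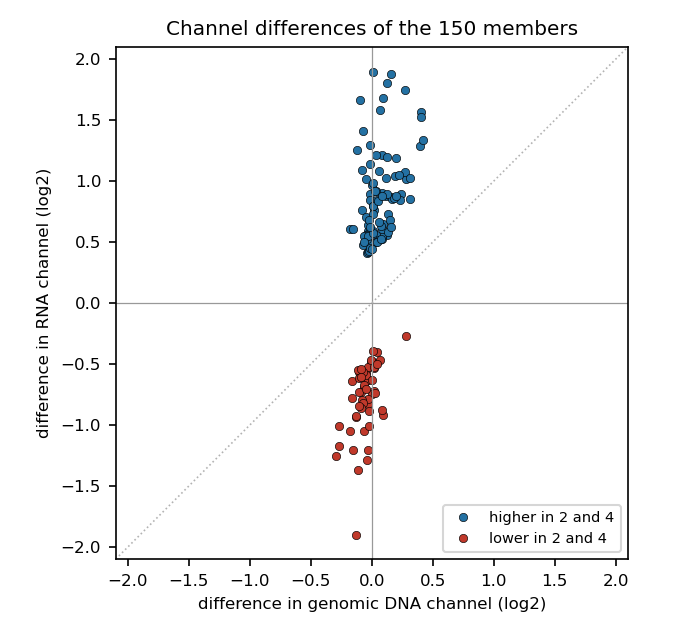
Difference between arrays 2 and 4 and arrays 1 and 3 in the genomic DNA channel (horizontal axis, log2) and in the RNA channel (vertical axis, log2) for the 150 members; each point is 1 gene, blue where the ratio was higher and red where it was lower in arrays 2 and 4, and the dotted line marks equal differences. The points spread along the RNA axis, with medians of 0.80 and -0.72. They spread less on the genomic DNA axis, with medians of 0.03 and -0.05 and ranges of -0.18 to 0.42 and -0.29 to 0.28.

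Genomic DNA signal, averaged over all 4 arrays, took no part in the choice of members. It was over 2 times that of the median probe in 33 of the 95 higher members (34.7%) and in 9 of the 55 lower members (16.4%), against 224 of the 4812 genes that met the filters (4.66%). Of the 101 genes with a signal over 4-fold, 27 were members (26.7%), 21 higher and 6 lower. Of the 123 genes from 2-fold to 4-fold, 15 were members (12.2%), 12 higher and 3 lower, and of the 4588 genes up to 2-fold, 108 were members (2.35%), 62 higher and 46 lower. The brightest higher member was Kwal_10.636, at 15.7 times the median probe, whose ratios were -4.11, -2.78, -3.65 and -3.29. The other 182 of the 224 genes over 2-fold were not members. The medians of the 33 higher members with a bright genomic DNA signal were -3.53, -2.52, -3.30 and -2.74 on arrays 1 to 4, and those of the other 62 were -1.07, -0.46, -1.14 and -0.51. Within the pairs, the bright members differed by a median of 0.207 for array 3 against array 1 and 0.219 for array 4 against array 2, more than the 0.107 and 0.120 of the others. The 182 bright genes that were not members also varied more within pairs than the genes that met the filters, with medians of 0.189 and 0.154.

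Members were unevenly placed in the assembly. The number before the point in an identifier was read as a contig and the number after it as the order of genes on it. The files used give no coordinates. On the 44 contigs with under 20 genes, 29 of the 116 genes that met the filters were members (25%), 24 higher and 5 lower, and they came from 15 of these contigs. Among the 10 genes at either end of the contigs with 100 or more genes, 21 of 156 were members (13.5%), 16 higher and 5 lower. Elsewhere 100 of 4540 were members (2.20%), 55 higher and 45 lower. A genomic DNA signal over 2-fold was found in 27 of the 29 members on small contigs and in 9 of the 100 elsewhere. Over all genes that met the filters it was found in 76 of the 116 on small contigs and in 113 of the 4540 elsewhere, so that position and genomic DNA signal went together in all genes as in the members.

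Some members were neighbours. Of the 150 members, 45 lay in 18 runs of adjacent genes and 105 lay alone. There were 12 runs of 2 genes, 4 of 3, 1 of 4 and 1 of 5, and 16 of the 18 runs had 1 direction throughout, against 6 after loess and 14 with the log ratio of the scanner software. No like count over all genes was made. On a contig of few genes, members are readily adjacent, and 29 members lay on contigs with under 20 genes. Since 95 of the 150 members were higher, a shared direction is also in part expected. The runs are therefore a description only.

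The longest run of higher members was Kwal_27.11201, Kwal_27.11204, Kwal_27.11206 and Kwal_27.11211, genes 324 to 327 of the 673 on contig 27, with a D of 1.47 to 1.88 and genomic DNA signals of 4.64 to 6.98 times the median probe. Ratios of Kwal_27.11201 were -5.12, -3.46, -5.13 and -3.84. Its D depended on the scaling, at 1.47 relative to the array median and -0.05 after a loess fit within each array, while the D of the other 3 genes stayed above 0 (0.22 to 0.43). The genes on either side were not members. Kwal_27.11189, the gene before, had ratios of 0.41, 0.23, 0.45 and 0.34, and Kwal_27.11215, the gene after, had -1.39, -1.30, -1.25 and -1.44. Their D was -0.14 and -0.05, and their genomic DNA signals were 0.79 and 1.28 times the median probe. The next gene, Kwal_27.11219, had a genomic DNA signal of 4.59-fold, just below those of the run, and a D of -0.00.

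Contigs 2 and 25 held runs with like values. On contig 2 the genes Kwal_2.440 (-4.46, -3.06, -4.31 and -2.93), Kwal_2.442 (-4.78, -2.96, -4.58 and -3.37) and Kwal_2.444 had a D of 1.38, 1.51 and 1.72. The remaining gene of that contig, Kwal_2.417, had ratios of -1.04, -1.09, -1.06 and -1.09. It had a D of -0.04 although its genomic DNA signal, at 6.36-fold, was above those of the run (3.08 to 5.02). On contig 25 all 3 genes were members, with a D of 1.16 for Kwal_25.6625 (-4.85, -3.68, -4.61 and -3.46), 1.48 for Kwal_25.6628 and 1.76 for Kwal_25.6633. The D of Kwal_25.6625 was -0.34 after loess, and those of the other 2 were 0.48 and 0.58.

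The 3 runs were linked by their probes. Stretches of 20 or more bases in common were counted on either strand. Probes that share such a stretch can take up the same target, so that their genes cannot be taken as separate measurements. Kwal_27.11206 shared such a stretch with Kwal_2.442, Kwal_25.6628 with Kwal_2.444, and Kwal_27.11201 had a probe identical to one of Kwal_25.6625. Of the 150 members, 27 shared a stretch of this length with another gene (24 higher and 3 lower), against 180 of the 4812 genes that met the filters. Of these, 22 shared it with another member, in 9 families, and all 9 families were higher throughout, against 4 after loess and 8 with the log ratio of the scanner software. The families hold members alone, joined by like probes. Their common direction follows in part from how they were made, and nothing is read from it. With each family counted once, the 150 members made 137 groups. A whole probe identical to that of another gene was found in 12 higher and 0 lower members, against 66 of the 4812.

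In the families, D varied between genes. The family of Kwal_11.648, Kwal_44.16506, Kwal_54.19484 and Kwal_60.24937 had a D of 0.60 to 0.74 (after loess 3 of the 4 were below 0), and that of Kwal_22.2754, Kwal_29.12878, Kwal_55.19500 and Kwal_55.19510 had 0.51 to 0.86 (1 of the 4 below 0 after loess). These families were named after their values were seen. Kwal_22.2746, the higher member with the lowest level, shared an identical probe with 3 genes that met the filters and were not members, Kwal_23.2767, Kwal_33.15651 and Kwal_47.19375, whose D was 0.24, 0.33 and 0.08, against 0.46 for Kwal_22.2746 itself. Its ratios were -5.43, -4.88, -5.38 and -5.00, and its RNA signal was 104, 224.5, 103 and 178.5 units on arrays 1 to 4.

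The only run of 3 or more lower members took up contig 46, whose 5 genes were all members. Kwal_46.16521 had ratios of 1.09, 0.26, 1.16 and 0.01 and Kwal_46.16540 had -0.54, -1.70, -0.59 and -1.37, with a D of -0.99 and -0.96. In all 5 genes of the contig, arrays 1 and 3 lay above arrays 2 and 4 with no overlap. Kwal_46.16543 had 0.74, 0.25, 1.23 and -0.20, Kwal_46.16544 had 1.62, 0.98, 1.58 and 0.74, and Kwal_46.16531 had -1.49, -1.83, -1.42 and -2.28, with a D of -0.96, -0.74 and -0.60. In Kwal_46.16543 and Kwal_46.16531 array 4 lay well below array 2. The genomic DNA signals of the 5 genes were 3.87 to 8.68 times the median probe. After loess the D of Kwal_46.16543 and Kwal_46.16544 was 0.15 and 0.20, above 0, and that of the other 3 genes stayed below 0 at -0.34 to -0.08.

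Runs of 3 higher members also occurred among genes with an ordinary genomic DNA signal. Genes 2 to 4 of the 144 on contig 34 were Kwal_34.15694 (-2.83, -1.94, -2.81 and -2.12), Kwal_34.15698 (-1.67, -1.02, -1.61 and -1.10) and Kwal_34.15702 (-3.28, -2.35, -3.06 and -2.21), with a D of 0.79, 0.58 and 0.89. The D of Kwal_34.15702 was -0.09 after loess. The first gene of the contig, Kwal_34.15670, had a D of 0.39 and was not a member. Genes 13 to 15 of the 656 on contig 26 were Kwal_26.6702 (-1.63, -0.86, -1.59 and -0.80), Kwal_26.6710 (-2.14, -1.40, -1.94 and -1.49) and Kwal_26.6721 (-0.64, -0.11, -0.44 and 0.14), with a D of 0.78, 0.60 and 0.55, the last of which was -0.02 after loess. Their neighbours Kwal_26.6697 and Kwal_26.6727 had a D of -0.17 and 0.21.

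**Figure D3:**
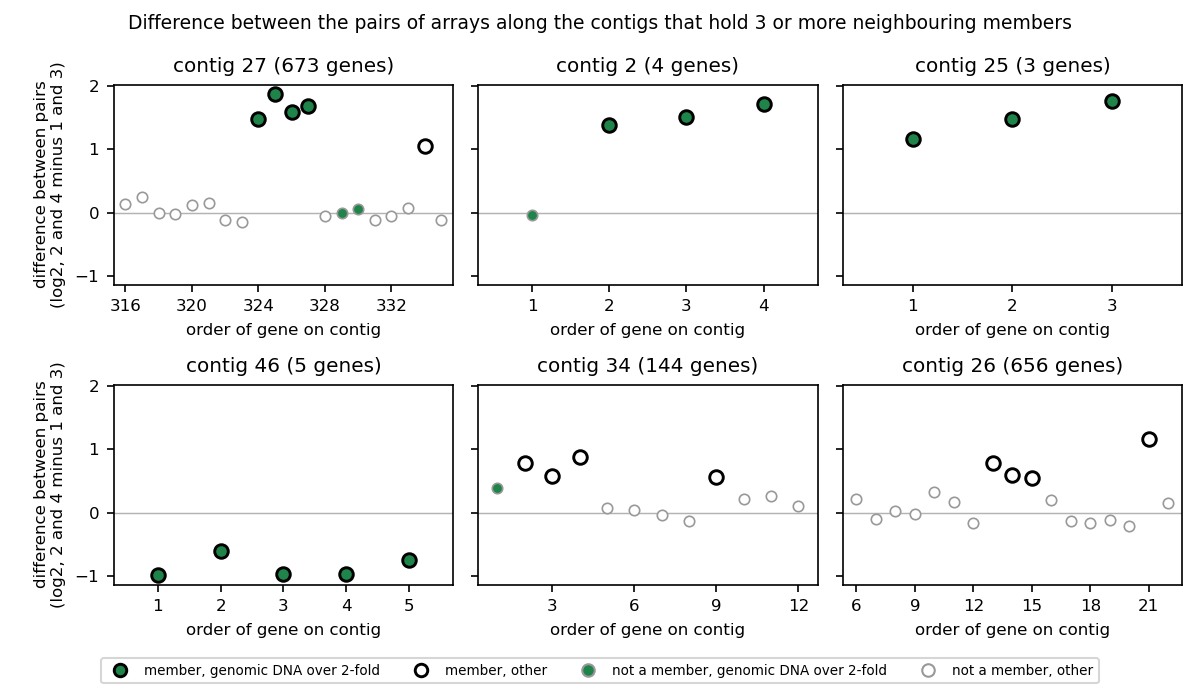
D in log2 (vertical axis) against the order of genes on 6 contigs (horizontal axis) that hold a run of 3 or more members; black outlines mark members, grey outlines other genes, and green fill a genomic DNA signal over 2-fold. The run on contig 27 stands at 1.47 to 1.88 between neighbours at -0.14 and -0.05, and the 5 genes of contig 46 lie at -0.99 to -0.60; after a loess fit within each array the sign turned in 1 gene of each run on contigs 25, 26, 27 and 34 and in 2 genes of the run on contig 46.

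Among the 17 higher members with both probes over 2-fold, 11 had a genomic DNA signal over 2-fold and 6 did not. Those 6, picked out after their values were seen, lay outside the families and covered a wide span of levels. Kwal_33.14692 was the most abundant, with ratios of 1.86, 2.82, 1.83 and 3.11 and RNA signals of 4873, 17108, 5326 and 21493 units, and its D of 1.12 was -0.26 after loess. Its 2 probes overlapped by 54 bases and are not separate measurements. Kwal_47.16561, gene 2 of its contig, had ratios of -0.01, 1.12, 0.19 and 1.20, and Kwal_26.6752 had -0.61, 0.77, -0.29 and 0.65. Near the median probe, these genes differed between pairs by 1.07 and 1.16, and by 0.06 and 0.33 after loess. Kwal_14.854 had ratios of -0.18, 1.01, -0.47 and 0.60, Kwal_27.11253 had -2.80, -1.72, -2.72 and -1.68, and Kwal_56.23619 had -2.74, -1.55, -2.81 and -1.64. Their D after loess was 0.12, 0.05 and 0.16. In all 6 the lower of arrays 2 and 4 was above the higher of arrays 1 and 3.

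The level of a gene, the mean over the 4 arrays of its log2 ratio relative to the median gene after quantile normalisation, was tested against a 2-fold difference with limma. Of the 95 higher members, 9 were above the median gene by this test and 45 below, whereas 23.1% of all 5192 genes tested were above and 21.0% below. Of the 55 lower members, 19 were above and 14 below. Over the genes that met the filters, the shares were 23.8% above and 19.1% below. The share of higher members called below was 47.4%, and the shares of lower members called above and below were 34.5% and 25.5%. The median level was -1.26 in higher members and 0.50 in lower members, against 0.03 in the genes that met the filters. The median of the lower members changed sign with the scaling, to -0.33 after loess and -0.06 with the log ratio of the scanner software. The spread between arrays in this test contains D. With arrays 1 and 3 and arrays 2 and 4 averaged before the fit, 8 higher members were above and 39 below, and 18 lower members were above and 14 below. If the 4 RNA samples did not come from separate cultures, these p-values measure the spread between arrays only.

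The level of the higher members differed with the genomic DNA signal, which is the denominator of the ratio. The 33 bright higher members had a median level of -3.04, with 2 above and 21 below, and the other 62 had -0.81, with 7 above and 24 below. Without members on small contigs or at contig ends, 55 higher members had a median level of -0.84, with 7 above and 22 below, and 45 lower members had 0.76, with 18 above and 10 below. For Kwal_27.11204 the level was -4.08 (adjusted p = 3.34e-05, limma), and all 6 of the leading higher members were below the median gene by the test. The highest level of a higher member was 3.55 in Kwal_14.1845, with ratios of 3.28, 3.89, 3.33 and 3.77. Its D of 0.53 was -0.12 after loess and -0.17 with the log ratio of the scanner software. Of the 6 leading lower members only Kwal_55.20461 passed the test, with a level of 2.79. The lower member with the highest level was Kwal_55.21187 (3.35), with ratios of 3.42, 3.22, 3.74 and 3.03, and the one with the lowest was Kwal_23.4735 (-3.58), with ratios of -3.38, -3.83, -3.21 and -3.86. The D of Kwal_55.21187 was -0.45 and turned to 0.09 after loess.

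The 4812 genes were split into 10 classes by level. The 482 genes with the lowest levels held 49 members, 38 higher and 11 lower, and the 482 with the highest levels held 15, of which 4 were higher and 11 lower. The SD of D over genes was 0.349 in the lowest class and 0.152 to 0.196 in the others. The median D went from 0.03 in the lowest class to -0.10 in the highest. Level moved with membership, and its part in the difference between pairs was not tested. The bright higher members, with a median level of -3.04, had a median RNA signal of 1046 units on array 1 and 1349 units on array 3. The genes that met the filters had 1253 and 1392 units. On arrays 2 and 4, on which these members were chosen to be higher, their medians were 3274 and 2226.5 units. For the genes that met the filters they were 1792 and 1631.5 units.

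**Figure D4:**
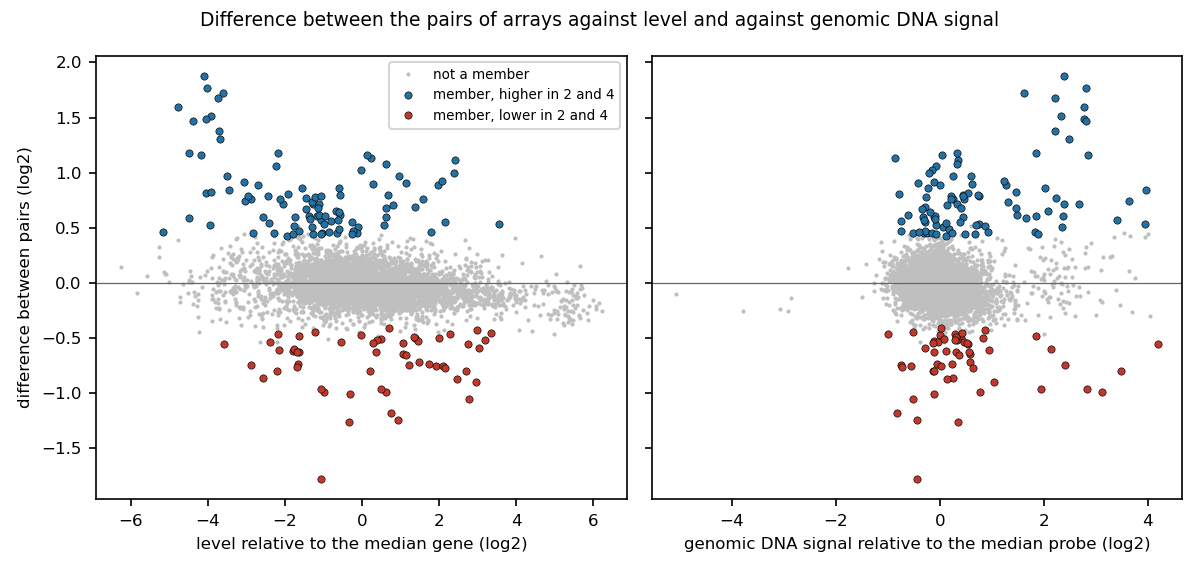
D in log2 (vertical axis) for the 4812 genes that met the filters against the level relative to the median gene (left, log2) and the genomic DNA signal relative to the median probe (right, log2); grey points are not members, blue members were higher and red members lower in arrays 2 and 4. The 6 leading higher members sit at levels of -4.76 to -3.60 and genomic DNA signals of 1.62 to 2.82, whereas the lowest D of -1.78 sits at a level of -1.05 and a genomic DNA signal of -0.44.

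Other features of the probes are given beside those of all genes that met the filters. The GC content of probes, each 55 bases long, had a median of 43.6% in higher members and 42.7% in lower members and in the genes that met the filters. The median row on the array was 93 in higher and 105 in lower members against 96.5, and the median column was 41.5 and 37.5 against 41. The 2 probes of a gene can overlap, in which case they are not separate measurements. They overlapped by 50 or more bases in 19 higher members (20%) and 5 lower members (9.09%), against 615 of the genes that met the filters (12.8%). They did not overlap in 50 higher members (52.6%) and 40 lower members (72.7%), against 3197 of those genes (66.4%).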

How the data were processed

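The deposited scanner files hold the median and mean pixel intensity and the local background of each spot, which the authors obtained with Agilent Feature Extraction (10.1.1.1 per the file headers; the methods name another version), flags of 0 or 1 (other values, used as filters), and a deposited log10 ratio of red over green after dye normalisation. The log2 table deposited by the authors, with unnamed rows, served as an alternative: 5179 of its 5193 rows equalled, to 4 decimals, the ratio of unsubtracted Cy3 over Cy5 medians.

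Background was subtracted, the log2 of Cy3 over Cy5 taken and the array median subtracted. Levels used limma 3.58.1 in R 4.3.3 (treat, 2-fold, two-sided, Benjamini-Hochberg at 0.05 over 5192 genes). The members and lists were chosen with earlier results of these data known. Named genes are the 6 leading members per direction, the 2 just inside and outside the limit, extremes of level and genomic DNA signal, and runs of 3 or more; others are marked. Scripts were tested on simulated data. The number of arrays limits precision.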

Additional observations from a re-analysis of the deposited data

Results flagged for a closer look

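One value, in units not scaled between arrays, stood apart from the other 3 arrays. The genomic DNA signal of Kwal_27.11951, one of the leading lower members, was 5901 units on array 1, against 6841, 6725 and 6883 units on arrays 2, 3 and 4. The gap between array 1 and the next array, divided by the whole range, was 0.838, above Dixon's 95% critical value for 4 samples. Of 84 measures compared in this way 1 passed the limit, and chance flags about 1 in 20 groups. Array 1 also had the lowest median genomic DNA signal of gene probes, at 7917 units against 9640, 8911 and 9218. Taken relative to the median probe of each array, the log2 signal of Kwal_27.11951 had an SD of 0.040 over the 4 arrays. The median SD in the genes that met the filters was 0.057.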

How the results depend on the processing

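No paired analysis was possible because the 4 arrays form 1 group. Under 15 of 18 alternatives the ranking gave 121 to 150 of the same 150 members, and 121 to 129 when 1 array was left out. Of these alternatives, subtracting negative controls (145) and leaving out probes like those of other genes (123) were chosen after seeing the data. The 123 is the number of members without such probes. A filter on genomic DNA well above background left the same 4812 genes, so that its 150 was fixed as well. Neither count bears on how stable the ranking was. It gave 27 after loess within each array, 81 with the log ratio of the scanner software and 90 with genes whose probes do not overlap, which is the number of members with such probes. Loess takes out what moves with mean signal within an array. Whether the part taken out held differences in RNA was not tested. The weaker probe at the limit then had a D of 0.167 (loess) and 0.190 (log ratio), and the median D of the members was 0.0835 and 0.274 for the higher and -0.0399 and -0.234 for the lower ones.

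Loess and the log ratio left 1 and 2 higher members and 4 and 7 lower members above the median gene. Tested against 0, 17 higher members were above and 71 below, and 32 lower members were above. Against a 4-fold difference these counts were 1, 27 and 10, with 4 lower members below. Without small contigs and contig ends, an alternative chosen after seeing the data, 22 higher members were below. The median level of the higher members was -0.96 (loess), -1.14 (log ratio), -0.81 (RNA alone) and -1.35 to -1.10 with 1 array left out. For the lower members it was -0.33, -0.058, 0.84 and 0.41 to 0.73.

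Among the 37 genes named by the rules above, D changed sign after loess in Kwal_14.1114 (0.062), Kwal_14.1845 (-0.12), Kwal_55.21187 (0.086), Kwal_27.11201 (-0.053), Kwal_46.16543 (0.15), Kwal_25.6625 (-0.34), Kwal_34.15702 (-0.086), Kwal_46.16544 (0.20) and Kwal_26.6721 (-0.024), and with the log ratio in Kwal_14.1845 (-0.17). Other members changed sign too. Of all members, 68 of 95 higher and 39 of 55 lower kept their sign after loess, and 91 and 55 with the log ratio. The cause was not tested. Dim RNA limits the lowest members: the dimmest had an RNA signal of 74.75 units on array 1, against 27.5 units in the negative controls.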
